A study of Homo sapiens with 6 samples.

Results

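The data described here compare JJN3 cells given WNK463 for 6 h with JJN3 cells given WNK463 for 2 h, and so follow how transcript levels moved between the 2 times. JJN3 is a human multiple myeloma cell line, derived from malignant plasma cells, in which a translocation activates the transcription factor MAF. The comparison used 4 of the 6 RNA-seq libraries of the series, 2 for each time, and every gene with at least 10 counts in 2 or more of those 4 libraries. That rule kept 15250 of 60728 genes. At its edge, 304 genes had a second highest count of exactly 10, with a median of 34 counts over the 4 libraries, and 311 genes with a second highest count of 9, with a median of 31, stayed out. The other 2 libraries came from cells given the vehicle DMSO and serve only as a reference level. The labels give no genetic change in any group, and the 2 treated groups share the compound and differ in time. The sample labels give WNK463 at 5 µM and the series design gives 1 µM, and the sources used here do not settle which of the 2 was used. The labels attach no time to the DMSO libraries, and hours of compound and hours in culture cannot be told apart between 2 h and 6 h.

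WNK463 is an inhibitor of the WNK kinases, serine-threonine kinases that sense chloride and cell volume. WNK kinases phosphorylate OXSR1 and STK39, and these in turn act on the SLC12 cotransporters that carry chloride with sodium or potassium across the membrane. Myeloma cells secrete large amounts of immunoglobulin, and ribosomes, chaperones and the unfolded protein response of the endoplasmic reticulum carry that load.

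The 2 h libraries held 18713007 and 24002291 counts, the 6 h libraries 18959025 and 19264703, and the DMSO libraries 18013790 and 21300013. Levels are given as CPM, counts relative to a library's total after scaling for library composition by TMM, always replicate 1 before replicate 2. A count of 3 in a library stood for between 0.128 and 0.167 CPM. Log CPM correlated at 0.983 between the 2 h replicates and 0.985 between the 6 h replicates, against 0.976 across the times. The summed level of 18 B and plasma cell markers lay between 5662 and 6168 CPM in all 6 libraries, led by immunoglobulin genes such as IGKC with 3830.3 and 3521 CPM at 2 h and 3552 and 3712 CPM at 6 h. IGKC made up most of that sum, and of 14 tested markers of the list SLAMF7 was called higher at 6 h and PAX5, SDC1, XBP1 and IGHG1 lower. Markers of other cells were near the floor: 12 T and NK cell markers summed to between 2.26 and 6.28 CPM, 12 myeloid markers to between 4.79 and 9.27 CPM, 10 erythroid markers to between 0.167 and 0.852 CPM, and 12 fibroblast and endothelial markers to between 3.65 and 9.67 CPM. CD3D, CD3G and GNLY, CD68 and ELANE, HBB, and LUM, PDGFRA and CDH5 had no count in any library. Of the 9 members of these 4 lists that were tested, the T cell receptor genes TRAC and TRBC1 were called higher at 6 h and the globin HBA1 lower. The 11 epithelial markers summed to between 107 and 141 CPM, and 1 of 6 tested, CLDN4, was called lower. The labels do not state that replicates came from separate cultures, so the spread behind each p-value may be technical. In these bulk libraries fewer cells of a kind and less RNA per cell cannot be told apart.

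Between 2 h and 6 h 4591 genes passed the test, 30.1% of those tested, by edgeR's quasi-likelihood test at a Benjamini-Hochberg adjusted p under 0.05. Of these, 2073 were higher at 6 h (13.6%) and 2518 were lower (16.5%). The changes were mostly small. The median rise was 0.41 on the log2 scale, 1.33-fold, and the median fall was -0.37, 1.29-fold. Only 333 genes (2.18%) passed with a log2 change of at least 1 in size, 212 of them higher and 121 lower, and DESeq2's Wald test gave 165 such genes. Both 6 h libraries lay on one side of both 2 h libraries for 9545 genes (62.6%), and for 4583 of the 4591 called genes. Protein-coding genes supplied 1926 of the rises and 2430 of the falls. Scaling by library size alone turned the split round, to 2944 higher and 1862 lower, and moved the median log2 change of all genes from 0.01 to 0.08. The spread used for a gene rested mainly on all genes together, with 37.4 prior against 2 residual degrees of freedom, so a gene's p reflects its own replicates only in small part.

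**Figure D1:**
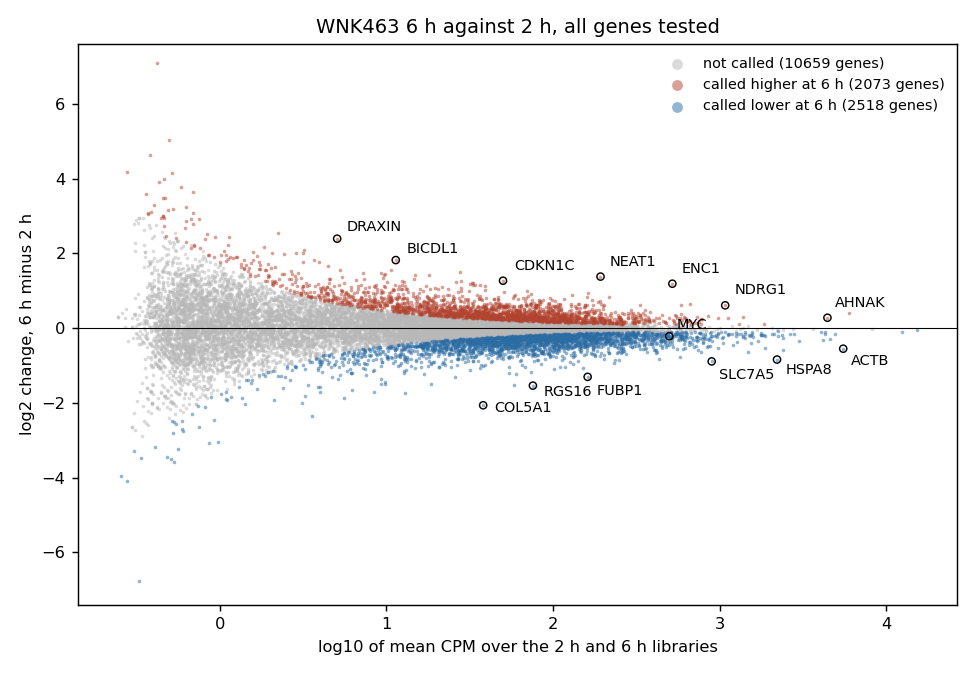
Each point is 1 of the 15250 tested genes, with the log10 of its mean CPM over the 2 h and 6 h libraries on the x axis and the log2 change of 6 h against 2 h on the y axis. Red points are the 2073 genes called higher at 6 h, blue points the 2518 called lower, and grey points were not called; changes of highly expressed genes such as HSPA8 and ACTB were below 1 on the log2 scale.

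The largest rises were ranked over called genes that averaged 4 CPM or more across the treated libraries, had both 6 h libraries on one side of both 2 h libraries, and had a symbol other than a clone name. Left out were genes with 25% or more of their exonic length shared with other genes. The 12 leading rises lay between 1.38 and 2.39 on the log2 scale. NEAT1, the long noncoding RNA that scaffolds nuclear paraspeckles (chr11:65422774-65445540, hg38), was the most abundant of them. It stood at 110.3 and 103 CPM at 2 h and 285 and 273 CPM at 6 h, with 451 and 405 CPM in the DMSO libraries. The 3 groups did not overlap, and 6 h lay between 2 h and DMSO. The rise from 2 h to 6 h was 2.60-fold (1.38 ± 0.051 log2 ± SE; edgeR quasi-likelihood, adjusted p = 1.81e-23). DRAXIN, a secreted repulsive axon guidance protein, headed the ranking at 2.46 and 0.853 CPM at 2 h and 8.58 and 8.37 CPM at 6 h, against 0.278 and 0.332 CPM in DMSO. The 2 h libraries differed from each other by more than the 6 h libraries did, and both lay above DMSO and below 6 h. Its rise was 5.25-fold (2.39 ± 0.32 log2 ± SE; edgeR quasi-likelihood, adjusted p = 7.78e-08).

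BICDL1, a cargo adaptor of the dynein motor, had 5.95 and 4.14 CPM at 2 h and 14.9 and 20.5 CPM at 6 h (3.53-fold). SPRR2A, a precursor of the cornified envelope of squamous epithelium, went from 6.45 and 4.39 to 14.7 and 17.3 CPM (2.96-fold), with 1.83 and 1.95 CPM in DMSO. For BICDL1 the DMSO libraries (6.78 and 4.56 CPM) overlapped those of 2 h, whereas for SPRR2A all 3 groups stood apart in order of time. MT2A, a metallothionein that binds zinc and copper, showed the same order, with 0.723 and 1.09 CPM in DMSO, 4.37 and 3.37 CPM at 2 h and 10.3 and 11.1 CPM at 6 h. The cold-sensing cation channel TRPM8 (2.67-fold), the membrane-tethering anoctamin ANO8 (3.16-fold), the membrane-anchored immunoglobulin-superfamily protein MDGA1 (2.95-fold) and the erythroid membrane protein ERMAP (2.68-fold) were also in the group. PAQR6, a membrane progestin receptor, CLIP2, a microtubule-binding linker, and MICALL2, an effector of Rab GTPases, rose 2.79-fold, 2.72-fold and 2.67-fold. In those 3 genes the DMSO libraries lay above both 2 h libraries and below both 6 h libraries. Over the 12 rises, DMSO lay below both times in 4 genes, overlapped 2 h below 6 h in 4, lay between the times in 3, and was above both in NEAT1.

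The 12 leading falls lay between -2.06 and -1.30 on the log2 scale. COL5A1, which encodes a chain of fibrillar type V collagen (chr9:134641803-134844843, hg38), fell most. Its level was 63.7 and 59.2 CPM at 2 h and 15.4 and 14.1 CPM at 6 h, below 139 and 94.0 CPM in DMSO. The groups were apart and followed the order of time, a 4.18-fold fall from 2 h to 6 h (-2.06 ± 0.11 log2 ± SE; edgeR quasi-likelihood, adjusted p = 9.15e-19). FUBP1, a single-strand DNA-binding protein that acts on an element far upstream of MYC (chr1:77944055-77979110, hg38), was the most abundant gene of the group. It went from 382 and 375 CPM in DMSO to 232 and 227 CPM at 2 h and 95.2 and 91.7 CPM at 6 h. The 6 h libraries were far below both other groups, and the later fall was 2.47-fold (-1.30 ± 0.053 log2 ± SE; adjusted p = 4.99e-22 by edgeR).

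In 3 of the 12 falls, NAB2, RGS16 and FOXP2, the level at 2 h lay above DMSO. NAB2, a corepressor of the EGR transcription factors, had 14.5 and 10.96 CPM in DMSO, 27.5 and 27.4 CPM at 2 h and 9.15 and 10.6 CPM at 6 h. Its 2 h libraries were the highest and its 6 h libraries the lowest, a 2.80-fold fall between the times (-1.49 ± 0.14 log2 ± SE; edgeR quasi-likelihood, adjusted p = 2.65e-11). RGS16, which speeds GTP hydrolysis by G-protein alpha subunits, went from 87.0 and 79.5 to 112 and 114 and then 38.5 and 39.4 CPM, and the transcription factor FOXP2 from 68.8 and 71.8 to 81.7 and 91.6 and then 35.2 and 26.1 CPM. In both genes the DMSO libraries lay between the 2 times. In the other falls DMSO overlapped 2 h or lay above it. The lysophospholipid transporter MFSD2A (3.66-fold), the Rac-inactivating ARHGAP22 (3.34-fold), the interferon-induced GTPase GBP1 (3.28-fold) and the small GTPase RASL10B (3.12-fold) fell from low levels. DDN, known from podocytes and dendrites, TRAT1, an adaptor of the T cell receptor, and MLKL, the executioner of necroptosis, fell 2.84-fold, 2.82-fold and 2.71-fold. Over the 12 falls, DMSO lay above both times in 6 genes, between them in 3, and in the other 3 overlapped 2 h above 6 h. The DMSO positions use the same 2 h and 6 h libraries as the ranking and are given as description.

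**Figure D2:**
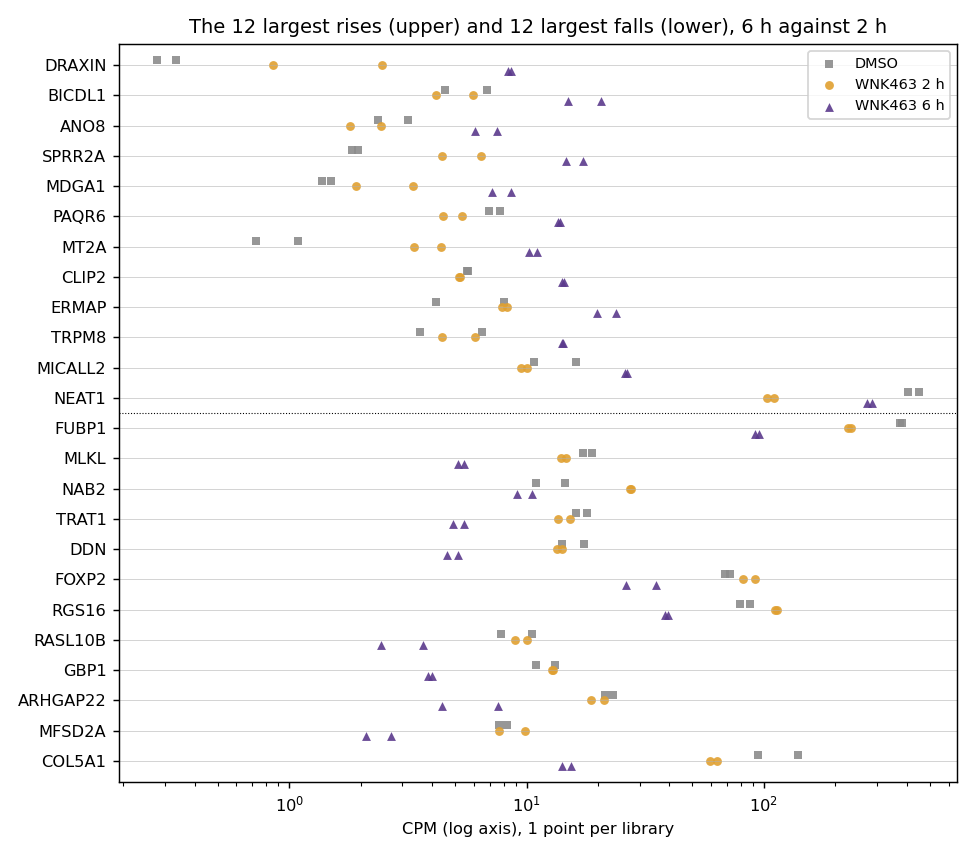
CPM on a log axis for the 12 largest rises (upper) and the 12 largest falls (lower), 1 symbol per library. Grey squares are DMSO, orange circles WNK463 2 h and purple triangles WNK463 6 h; NAB2, FOXP2 and RGS16 have their highest values at 2 h, while COL5A1 and FUBP1 decline from DMSO through 2 h to 6 h.

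By CPM rather than by fold, the transcripts that gained most were MT-RNR2, ENC1, AHNAK, NDRG1, SQSTM1 and ZBTB38. MT-RNR2, the large ribosomal RNA of mitochondria, had 5151 and 5186 CPM at 2 h and 6742 and 6948 CPM at 6 h. ENC1, an actin-binding Kelch protein, had 295 and 315 CPM in DMSO and 319.6 and 313 CPM at 2 h, then 731 and 719 CPM at 6 h. The DMSO and 2 h libraries of ENC1 overlapped and both 6 h libraries were far above them, a 2.28-fold rise (1.19 ± 0.037 log2 ± SE; edgeR quasi-likelihood, adjusted p = 5.50e-26). The giant scaffold protein AHNAK rose 1.21-fold, the stress-responsive NDRG1 1.53-fold and the methyl-CpG-binding zinc-finger protein ZBTB38 1.56-fold.

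The largest losses in CPM were ACTB, HSPA8, ACTG1, ENO1, HSP90AB1 and MT-CO1. The cytoplasmic actin ACTB went from 6451 and 6642 to 4395 and 4591 CPM and its partner ACTG1 from 2848 and 2943 to 1952 and 1901 CPM. Both actins were lower in both 6 h libraries than in any of the other 4, with log2 changes of -0.55 ± 0.023 and -0.59 ± 0.026 (± SE; edgeR adjusted p = 5.64e-22 and 6.07e-21). The glycolytic enzyme ENO1 fell 1.23-fold and the cytosolic chaperone HSP90AB1 1.25-fold. MT-CO1, a mitochondrially encoded subunit of cytochrome oxidase, fell by 0.091 on the log2 scale, and this call was lost with library size alone, in the fit of all 6 libraries and without 2 h replicate 2, where the log2 change was -0.05.

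The 30 pathway lists were read as counts beside the background of all tested genes, 13.6% higher and 16.5% lower. Nucleolar ribosome biogenesis, with 71 of 77 members lower, and mitosis and kinetochore, with 41 of 60 higher, marked the 2 ends. Among lists with at least 20 tested members, ribosomal proteins, tRNA synthetases, nucleotide synthesis and chaperones also had more than 70% of members lower. The unfolded protein response and autophagy lists had 29.7% and 34.7% of members higher and 5.41% and 2.04% lower. Similar shares were higher in other lists. CDK inhibitors and cyclins had 38.1% higher and 23.8% lower, and p53 targets 30.4% each way. In the smaller lists of nuclear long noncoding RNAs and liver X receptor targets, 35.7% and 33.3% were higher.

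**Figure D3:**
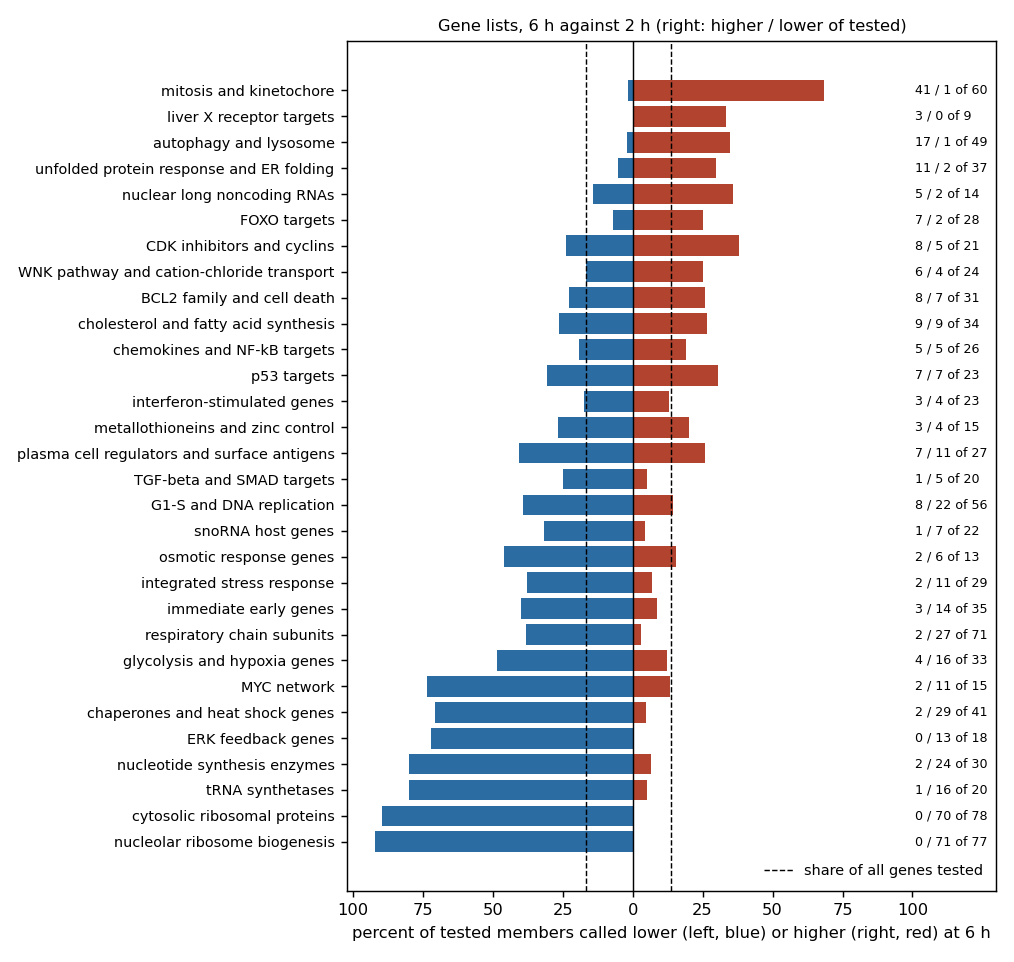
Bars give the percent of tested members of each of 30 gene lists that were called lower (blue, to the left) or higher (red, to the right) at 6 h than at 2 h, with the counts at the right edge. Dashed lines mark the share over all tested genes, 16.5% lower and 13.6% higher; bars of ribosome, translation and chaperone lists extend far to the left of it and that of mitosis far to the right.

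Immediate early genes, whose transcription starts within minutes of a signal without new protein synthesis, gave more falls than rises between 2 h and 6 h. Of 35 tested members, 14 fell, 3 rose and 18 did not pass, with a median log2 change of -0.38 beside 0.01 over all tested genes. EGR1, a member, is a zinc-finger factor known to be induced through serum response factor. RefSeq's promoter table (GRCh38.p14) matched 27 of the 35 members. The 250 bases before each start were searched on both strands for the CArG box of serum response factor and for TGANTCA, the AP-1 site. The CArG box stood in 1 of the 27 promoters, that of EGR1, and in 1.04% of the promoters of 10734 tested genes that matched the table. The AP-1 letters stood in 0 of 27 and in 3.95% of those promoters. The EGR1 promoter (chr5:138465229-138465478, plus strand) is shown because it holds the only CArG matches of the list, in capitals.
EGR1: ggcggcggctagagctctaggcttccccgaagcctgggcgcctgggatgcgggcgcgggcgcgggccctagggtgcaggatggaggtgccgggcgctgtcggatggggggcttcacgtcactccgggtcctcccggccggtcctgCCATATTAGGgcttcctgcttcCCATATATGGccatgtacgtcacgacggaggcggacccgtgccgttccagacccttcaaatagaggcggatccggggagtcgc

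EGR1, with those CArG matches 105 and 83 bases before its start, stood at 5.89 and 6.45 CPM in DMSO, 16.6 and 18 CPM at 2 h and 9.35 and 9.08 CPM at 6 h. All 3 groups were apart, with 2 h highest and 6 h between it and DMSO. The fall from 2 h was 1.89-fold (-0.91 ± 0.16 log2 ± SE; edgeR quasi-likelihood, adjusted p = 1.21e-05). The 3 members of the list with the smallest adjusted p among the falls were PLK3, JUNB and MAFK. PLK3, a stress-activated kinase, had 32.2 and 34.2 CPM in DMSO, 83.5 and 81.2 CPM at 2 h and 52.6 and 53.8 CPM at 6 h. JUNB, an AP-1 subunit, had 41.1 and 36.5, 72.8 and 65.4 and 43.4 and 47.7 CPM in the same order. Both were highest at 2 h and remained above DMSO at 6 h. MAFK, a small MAF partner of the NRF2 and BACH factors, had 65.6 and 47.9 CPM in DMSO, 49.7 and 42.5 CPM at 2 h and 24.9 and 25.1 CPM at 6 h, so that only the 6 h libraries stood apart from the rest. The AP-1 genes FOS (-1.04 log2) and FOSL2 (-0.67) and the small MAF gene MAFF (-0.75), chosen after their values were seen, also fell.

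The 3 immediate early genes that rose were BTG2, MCL1 and TNFAIP3. BTG2, an antiproliferative gene that promotes mRNA deadenylation, had 78.1 and 83.9 CPM at 2 h and 106 and 109.7 CPM at 6 h, with 124 and 108 CPM in DMSO. Its 2 h libraries were the lowest, and its 6 h libraries overlapped DMSO. MCL1, which blocks apoptosis, and TNFAIP3, which restrains NF-kB, rose by 0.11 and 0.14 on the log2 scale. Without 2 h replicate 2 or without 6 h replicate 1, the number of members that rose was 1. The TNFAIP3 call was lost without any 1 of the 4 libraries, and also with no filter, with DESeq2's Wald test, in the fit of all 6 libraries and with a replicate block (adjusted p = 0.0529 by edgeR).

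ERK feedback genes, the phosphatases and adaptors that MAP kinase signalling switches on to limit itself, fell in 13 of 18 tested members with no rise (median -0.52). DUSP4 and DUSP5, phosphatases of nuclear ERK, and DUSP7, a cytoplasmic one, had the smallest adjusted p. DUSP5 had 72.5 and 63.8 CPM in DMSO, 100 and 104 CPM at 2 h and 69.2 and 66.2 CPM at 6 h. Its 6 h libraries overlapped DMSO, and the fall from 2 h was 1.51-fold (-0.60 ± 0.068 log2 ± SE; edgeR quasi-likelihood, adjusted p = 3.14e-09). DUSP4 had 53.2 and 49.8, 90.8 and 96.9 and 67.8 and 65.5 CPM in the same order, with 6 h between DMSO and 2 h. DUSP7 had 49.8 and 48.9, 58.6 and 61.1 and 39.8 and 33.4 CPM, with 6 h below both other groups. SPRY2 and SPRY4, Sprouty inhibitors of receptor tyrosine kinase signalling chosen after their values were seen, fell by 0.95 and 1.63 on the log2 scale from levels of at most 6.06 CPM. The summed level of the list's 21 members was 851 and 852 CPM at 2 h and 667 and 652 CPM at 6 h, beside 506 and 468 CPM in DMSO.

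Among NF-kB targets and chemokines 5 of 26 tested members rose and 5 fell, with a median of -0.07 that turned to 0.01 with library size alone. The falls included NFKBIA, the inhibitor that NF-kB induces, at 79.6 and 69.3 CPM at 2 h and 53.9 and 58.6 CPM at 6 h, and BIRC3, a ubiquitin ligase, at 303 and 330.0 and 246 and 246 CPM. In both genes both 6 h libraries lay below both 2 h libraries. ICAM1, an adhesion molecule, fell 1.72-fold, and 25.4% of its exonic length is shared with another gene. The rises were led by the chemokine CCL5, at 4.23 and 3.56 CPM in DMSO, 7.43 and 7.25 CPM at 2 h and 17.7 and 17.6 CPM at 6 h. The 3 groups of CCL5 were apart and increased with time (2.39-fold from 2 h; 1.26 ± 0.16 log2 ± SE; edgeR adjusted p = 6.45e-08). BIRC2, a paralogue of BIRC3, and CYLD, a deubiquitinase that restrains NF-kB, rose 1.48-fold and 1.496-fold. Thus the paralogues BIRC2 and BIRC3 moved in opposite directions.

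Of 20 tested TGF-beta genes, 5 fell and 1 rose (median -0.14). SMAD7, the inhibitory SMAD that the pathway induces, had 20.7 and 17.3 CPM in DMSO, 39.7 and 39.8 CPM at 2 h and 22.0 and 21.5 CPM at 6 h. Its 2 h libraries were apart from the others and its 6 h libraries lay just above DMSO, a 1.84-fold fall (-0.88 ± 0.11 log2 ± SE; edgeR adjusted p = 1.78e-08). TGFBR3, the co-receptor betaglycan, and SKIL, a SMAD corepressor, fell 1.5-fold and 1.31-fold. SMAD2, a receptor-regulated SMAD, was the 1 rise (0.22 log2), and it was lost without 2 h replicate 1 (adjusted p = 0.0516 by edgeR).

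Genes of mitosis and the kinetochore, which assemble the spindle and attach chromosomes to it, were higher at 6 h. Of 60 tested members, 41 rose and 1 fell (median 0.37), beside 13.6% and 16.5% of all tested genes. Their summed level was 6150 and 6320 CPM at 2 h and 7994 and 7911 CPM at 6 h, beside 7222 and 7591 CPM in DMSO. The 6 h sums were thus the highest and the 2 h sums the lowest. MKI67, the proliferation antigen that coats mitotic chromosomes, had 629.8 and 628 CPM in DMSO, 459 and 467 CPM at 2 h and 729 and 707 CPM at 6 h. The groups were apart, and the rise was 1.54-fold (0.63 ± 0.036 log2 ± SE; edgeR quasi-likelihood, adjusted p = 1.94e-17). NDC80, a core of the outer kinetochore, went from 142 and 153 CPM in DMSO through 86.0 and 97.3 CPM at 2 h to 172 and 166 CPM at 6 h. ASPM, a spindle pole protein, had 139 and 160.4, 85.6 and 85.7 and 148 and 146 CPM in that order. For NDC80 the 6 h libraries were above all others, while for ASPM they lay within the range of DMSO.

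Among mitotic kinases, CDK1 (0.43 log2), TTK (0.75) and AURKA (0.46), chosen after their values were seen, rose. PLK1, the Polo-like kinase of mitotic entry, was the 1 fall of the list, from 229 and 220.5 to 199.6 and 212 CPM (-0.14 log2). The PLK1 call was lost in 6 of the 13 alternative settings, among them library size alone and leaving out 2 h replicate 1 or 6 h replicate 1. CCNB1, the cyclin partner of CDK1, and CDC20, the activator of the anaphase ligase, had log2 differences of 0.065 and -0.11 and did not pass.

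Of 56 tested genes of the G1-S transition and DNA replication, 22 fell, 8 rose and 26 did not pass (median -0.12). The falls were led by MCM3 and MCM4, subunits of the replicative helicase, and GINS2, which activates it. MCM4 had 555 and 539.5 CPM in DMSO, 498 and 496 CPM at 2 h and 337 and 334 CPM at 6 h. MCM3 had 1009 and 1025, 1015 and 997 and 791 and 808 CPM in the same order. In both helicase genes the 6 h libraries were below all others, although for MCM4 the 2 h libraries were also below DMSO. MCM4 fell 1.49-fold (-0.57 ± 0.038 log2 ± SE; edgeR quasi-likelihood, adjusted p = 2.31e-15). GINS2 fell 1.62-fold. The rises were small: RRM2, a subunit of ribonucleotide reductase, RPA2, of the single-strand DNA-binding complex, and CLSPN, a checkpoint mediator, rose by 0.21, 0.28 and 0.23 on the log2 scale. The number of falls was 14 with library size alone, and the number of rises was between 4 and 5 without 2 h replicate 1, 6 h replicate 1 or 6 h replicate 2.

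Among CDK inhibitors and cyclins 8 of 21 tested genes rose and 5 fell. CDKN1C, which encodes the CDK inhibitor p57, had 10.2 and 9.35 CPM in DMSO, 26.1 and 32.4 CPM at 2 h and 69.8 and 72.4 CPM at 6 h. The groups were apart and increased with time, 2.41-fold from 2 h to 6 h (1.27 ± 0.10 log2 ± SE; edgeR quasi-likelihood, adjusted p = 6.26e-14). CDKN2C, the p18 inhibitor of CDK4 and CDK6, rose 1.61-fold and the S-phase cyclin CCNA2 1.45-fold. CDKN1A, the p21 inhibitor and a target of p53, chosen after its values were seen, had 78.6 and 71.8 CPM in DMSO, 166 and 167 CPM at 2 h and 169 and 166 CPM at 6 h. Its 2 h and 6 h libraries overlapped and the change between them was 0.00 on the log2 scale (SE 0.051). CCND2, the D-type cyclin that MAF activates in myeloma, had 187 and 193 CPM in DMSO, 360.0 and 356 CPM at 2 h and 267 and 248 CPM at 6 h. It was highest at 2 h and remained above DMSO at 6 h (1.40-fold fall; -0.48 ± 0.043 log2 ± SE; edgeR adjusted p = 7.28e-12). CDC25A, a phosphatase that activates CDK2, fell 1.51-fold, and CDK4, which shares 44.2% of its exonic length with other genes, 1.42-fold. The count of falls was 3 without 2 h replicate 1 and without 6 h replicate 2.

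**Figure D4:**
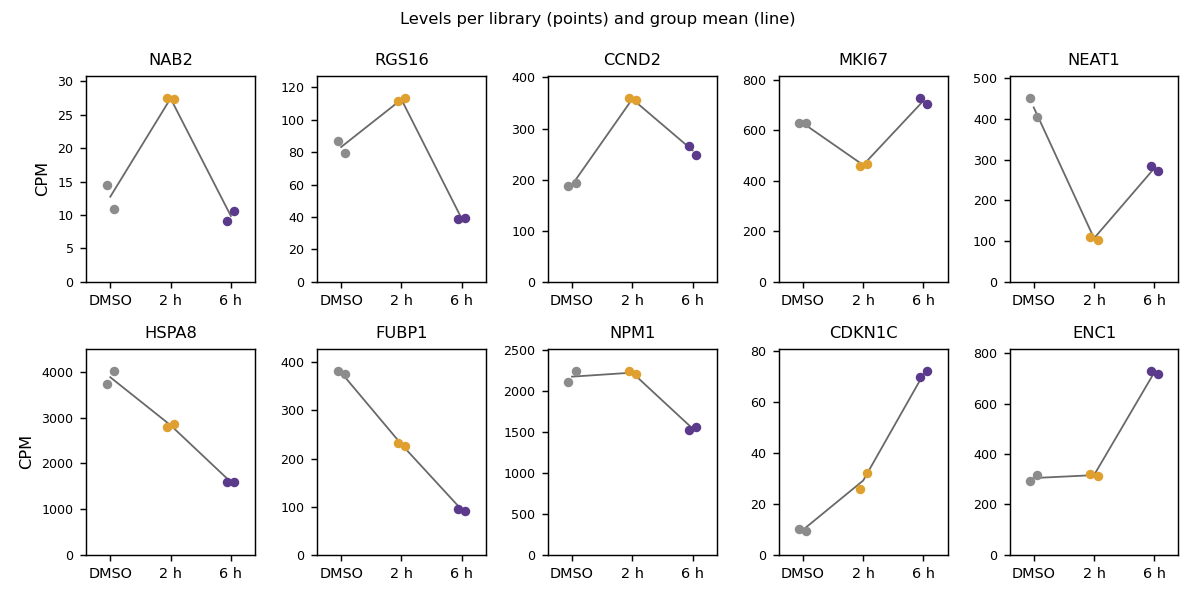
CPM of 10 genes in each of the 6 libraries (points) with the group mean (line), from DMSO through 2 h to 6 h of WNK463; each y axis starts at 0. NAB2, RGS16 and CCND2 peak at 2 h, MKI67 and NEAT1 have their lowest values at 2 h, HSPA8 and FUBP1 decline at each step, NPM1 is lower only at 6 h, and CDKN1C and ENC1 are highest at 6 h.

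The MYC network, MYC with the MAX-binding factors that share or oppose its DNA sites, was lower at 6 h in 11 of 15 tested members and higher in 2 (median -0.26). MYC, the transcription factor that drives ribosome production and growth, is the centre of the list. It had 887 and 828 CPM in DMSO, 536 and 534 CPM at 2 h and 463 and 461 CPM at 6 h. The groups were apart, and most of the difference from DMSO was already present at 2 h. The later fall was 1.16-fold (-0.22 ± 0.036 log2 ± SE; edgeR quasi-likelihood, adjusted p = 7.01e-06), and it was -0.14 with library size alone. FUBP1, described above, and PVT1, the noncoding neighbour of MYC (1.64-fold), fell further. The MYC antagonist genes MXD4 and MXD3 rose 1.22-fold and 2.84-fold, but 40.2% of the exonic length of MXD3 is shared with other genes. MXD3 had 14.6 and 14.1 CPM at 2 h and 41.3 and 40.5 CPM at 6 h. The MXD4 call was lost without 2 h replicate 2 and without 6 h replicate 1.

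Nucleolar ribosome biogenesis genes, which transcribe, cut and modify ribosomal RNA and load ribosomal proteins onto it, were lower at 6 h almost throughout. Of 77 tested members, 71 fell and none rose, with a median of -0.53. Among 65 members matched in RefSeq's promoter table (GRCh38.p14), 9 held CACGTG, the palindromic E-box bound by MYC and MAX, within 250 bases before the start (13.8%). The same letters stood in 8.88% of the promoters of tested genes and in 6.34% of all 35116 promoters. The 9 members with the motif were all among those that fell, but so were 60 of the 65 matched members. UTP20, a component of the complex that processes small subunit RNA, had the smallest adjusted p among the 9. Its promoter (chr12:101279855-101280104, plus strand) is shown with the E-box in capitals, 10 bases before the start.
UTP20: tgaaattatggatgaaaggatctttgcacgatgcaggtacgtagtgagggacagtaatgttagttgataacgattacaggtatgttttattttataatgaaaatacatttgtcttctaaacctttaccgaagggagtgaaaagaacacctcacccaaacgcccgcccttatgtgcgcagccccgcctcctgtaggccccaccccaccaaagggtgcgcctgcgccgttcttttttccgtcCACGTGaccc

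UTP20, whose E-box lies next to its start, had 178 and 182 CPM in DMSO, 152 and 164 CPM at 2 h and 73.4 and 81.4 CPM at 6 h. The 6 h libraries were lower than all others, a 2.05-fold fall from 2 h (-1.04 ± 0.063 log2 ± SE; edgeR quasi-likelihood, adjusted p = 1.19e-16). NPM1, the abundant nucleolar histone chaperone (chr5:171387116-171411137, hg38), had 2101 and 2242 CPM in DMSO and 2242 and 2199 CPM at 2 h, then 1523 and 1555 CPM at 6 h. NCL, nucleolin, which binds nascent ribosomal RNA, had 1849 and 1838, 1853 and 1764 and 1157 and 1181 CPM in the same order. For both abundant proteins DMSO and 2 h overlapped and 6 h stood apart below them, at -0.54 ± 0.027 and -0.64 ± 0.029 on the log2 scale (± SE; edgeR adjusted p = 4.19e-19 and 2.81e-20).

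DDX21, an RNA helicase of the nucleolus, fell 1.70-fold, from 734 and 726 to 438 and 423 CPM. MYBBP1A, a nucleolar regulator of RNA polymerase I, and DDX10, a helicase of the small subunit pathway, both chosen after their values were seen, fell 2.09-fold and 2.06-fold. The members that did not pass included NOP53, a large subunit factor, at -0.03, and NOP2, at 0.601 and 0.768 CPM at 2 h and 0.103 and 0.203 CPM at 6 h, with 54.4% of its exonic length shared. The summed level of the list was 14085 and 13853 CPM at 2 h and 9347 and 9414 CPM at 6 h, beside 14789 and 14768 CPM in DMSO. The 2 h sums were thus close to DMSO and the 6 h sums well below both.

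Cytosolic ribosomal proteins fell in 70 of 78 tested genes with no rise, but by little (median -0.18). RPL13, of the large subunit, had 2629.8 and 2278 CPM in DMSO, 2613 and 2632 CPM at 2 h and 2175 and 2193 CPM at 6 h. Both 6 h libraries lay below the other 4 (-0.27 ± 0.025 log2 ± SE; edgeR adjusted p = 2.16e-11). RPSA, of the small subunit, fell by 0.23 on the log2 scale. The members' log2 changes lay between -0.41 and 0.00, beside a shift of 0.08 in the median of all genes between scalings, and with library size alone 46 members fell. Many ribosomal protein genes have processed pseudogenes. Only read pairs with a mapping quality of at least 20 were counted. How many pairs of these genes that limit removed was not tested.

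Enzymes that make nucleotides fell in 24 of 30 tested genes and rose in 2 (median -0.30). PAICS, which catalyses steps of purine synthesis, had 523 and 544 CPM in DMSO, 509 and 511 CPM at 2 h and 327 and 318 CPM at 6 h. The DMSO and 2 h levels were close and the 6 h libraries were well below both (-0.67 ± 0.039 log2 ± SE; edgeR adjusted p = 2.87e-17). IMPDH1, an isoform of the rate-limiting enzyme of guanine nucleotide synthesis, and CAD, which starts pyrimidine synthesis, fell 1.63-fold and 1.44-fold. RRM2 and SHMT1, which supply deoxynucleotides and single-carbon units, were the rises, and the SHMT1 call was lost without 2 h replicate 2 or 6 h replicate 2. The cytosolic tRNA synthetases, which charge tRNAs with amino acids, fell in 16 of 20 and rose in 1 (median -0.33). IARS1 had 505 and 523 CPM at 2 h and 333 and 333 CPM at 6 h (1.55-fold fall), GARS1 fell 1.42-fold and KARS1 1.41-fold. WARS1, the tryptophanyl enzyme, which interferon also induces, rose 1.20-fold.

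**Figure D5:**
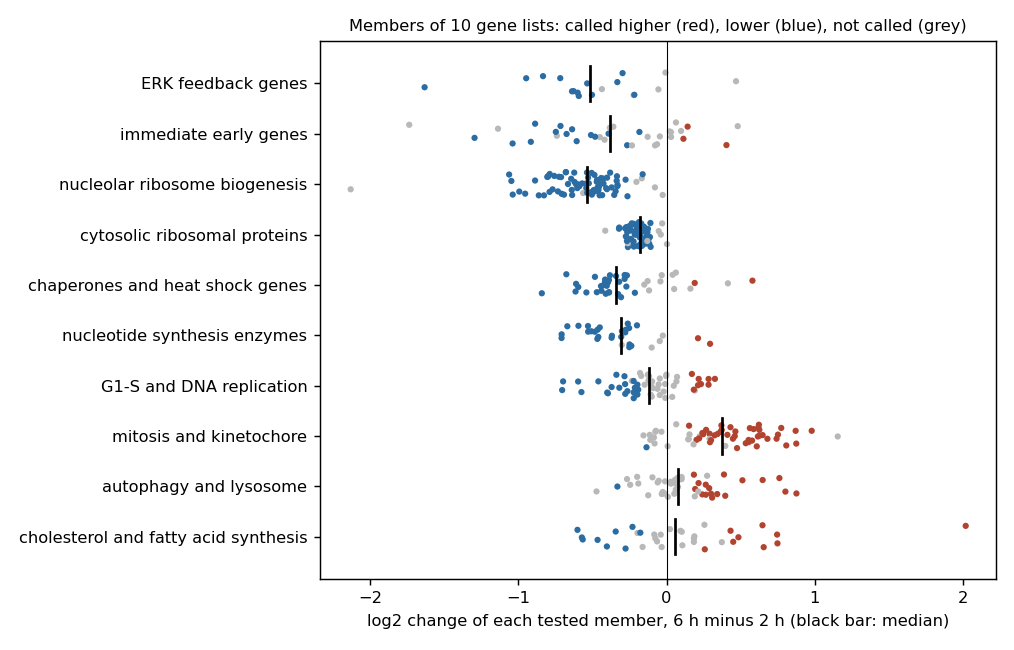
Each point is a tested member of 1 of 10 gene lists at its log2 change of 6 h against 2 h (x axis); blue points were called lower, red points higher and grey points neither, and the black bar is the list's median. Ribosome biogenesis (median -0.53) and ERK feedback genes (-0.52) lie to the left, mitosis (0.37) to the right, and cholesterol and fatty acid synthesis has called members on both sides.

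Chaperones and heat shock genes, which fold newly made and damaged proteins, were lower in 29 of 41 tested members and higher in 2 (median -0.34). Among 37 members matched in RefSeq's table, 10 held TTCNNGAA or GAANNTTC, paired units of the heat shock element, within 250 bases before the start (27.0%), beside 8.81% of the promoters of tested genes. Of the 37 matched members 26 fell, and of the 10 with the motif 5 fell and 1 rose. HSPA8, the constitutive cytosolic HSP70, had the smallest adjusted p among them. Its promoter (chr11:123062137-123062386, minus strand) is shown with its 4 overlapping matches in capitals, in clusters at 230 and 225 and at 55 and 50 bases before the RefSeq start.
HSPA8: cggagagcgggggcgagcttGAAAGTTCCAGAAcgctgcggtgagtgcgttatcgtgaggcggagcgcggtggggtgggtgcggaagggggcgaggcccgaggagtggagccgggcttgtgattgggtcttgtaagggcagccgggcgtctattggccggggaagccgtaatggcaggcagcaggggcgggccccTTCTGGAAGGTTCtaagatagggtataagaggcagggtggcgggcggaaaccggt

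HSPA8, with those paired heat shock units, had 3742 and 4019.6 CPM in DMSO, 2795 and 2869.6 CPM at 2 h and 1582 and 1597 CPM at 6 h. It declined at each step with no overlap, 1.79-fold between 2 h and 6 h (-0.84 ± 0.026 log2 ± SE; edgeR quasi-likelihood, adjusted p = 5.50e-26). HSPD1, the mitochondrial chaperonin, had 1146 and 1152 CPM at 2 h and 787 and 802 CPM at 6 h, beside 1105 and 1171 CPM in DMSO, and fell 1.45-fold. CCT5, a subunit of the cytosolic chaperonin that folds actin and tubulin, fell 1.40-fold, with 30.8% of its exonic length shared with other genes. TCP1, CCT2, CCT3, CCT4, CCT6A, CCT7 and CCT8, the other members of that chaperonin in the list, fell too. The stress-inducible genes HSPA1A (0.41 log2), DNAJB1 (-0.041) and BAG3 (0.051), chosen after their values were seen, did not pass. Other members chosen in the same way were lower, HSP90AA1 (-0.38) and CHORDC1 (-0.61), whose promoter holds 6 matches to the heat shock letters. DNAJB6 and DNAJB2, cochaperones of HSP70, were the 2 rises, at 0.19 and 0.58, and DNAJB2 was lost without 2 h replicate 2 or 6 h replicate 2.

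The unfolded protein response, which enlarges the folding capacity of the endoplasmic reticulum and is active in plasma cells, gave 11 rises and 2 falls among 37 tested genes (median 0.05). The rises were led by SEL1L, which holds the ligase complex of ER-associated degradation, at 216 and 242 CPM in DMSO, 295 and 292 CPM at 2 h and 381 and 373 CPM at 6 h. SEC24D, a coat protein of ER export vesicles, and EDEM1, which sends misfolded glycoproteins to degradation, rose 1.37-fold and 1.27-fold. SEL1L increased at each step without overlap. XBP1, the plasma cell factor that controls this programme, had 235 and 239 CPM at 2 h and 203 and 205 CPM at 6 h, with 248 and 268 CPM in DMSO, and fell by 0.22 on the log2 scale (edgeR adjusted p = 1.91e-04), and the log2 change was -0.15 with library size alone. SEC61A1, the channel through which proteins enter the ER, fell 1.21-fold. The fit of all 6 libraries called 7 rises, and without 2 h replicate 2 there were 4 falls.

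The integrated stress response, in which ATF4 raises amino acid uptake and synthesis, fell in 11 of 29 tested genes and rose in 2 (median -0.28). The falls were led by amino acid carriers. SLC7A5, which imports leucine and other large neutral amino acids, had 1162 and 1088 CPM in DMSO, 1151 and 1174 CPM at 2 h and 621 and 639 CPM at 6 h. DMSO and 2 h overlapped and the 6 h libraries were far lower, a 1.85-fold fall (-0.89 ± 0.032 log2 ± SE; edgeR quasi-likelihood, adjusted p = 1.08e-23). SLC1A5, a glutamine carrier, and SLC7A1, an arginine and lysine carrier, fell 1.56-fold and 1.57-fold. GADD45A, a growth arrest gene, rose from 177 and 179 to 234 and 233 CPM. CTH, an enzyme of cysteine synthesis, rose by 0.37, a call lost without 2 h replicate 2 or 6 h replicate 1. ATF4 itself had a log2 difference of -0.11 and did not pass.

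Cholesterol and fatty acid synthesis split within the list, with 9 of 34 tested genes higher and 9 lower (median 0.06). The rises included HMGCS1, an early enzyme of sterol synthesis, which rose 1.68-fold, with 37.7% of its exonic length shared with other genes, and INSIG1, which retains the sterol sensor in the ER, 1.20-fold. The falls included the main enzymes of fatty acid synthesis. FASN, fatty acid synthase, had 811 and 749 CPM in DMSO, 703 and 739.8 CPM at 2 h and 481 and 495 CPM at 6 h, and ACACA, which supplies malonyl-CoA, 142 and 143, 114 and 117 and 78.0 and 75.1 CPM. Both were lowest at 6 h, with log2 changes of -0.57 ± 0.036 and -0.60 ± 0.064 (± SE; edgeR adjusted p = 5.53e-16 and 6.94e-10).

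Targets of liver X receptors, nuclear receptors for oxysterols, rose in 3 of 9 tested genes with no fall. ABCA1, the cholesterol exporter, had 18.8 and 19.0 CPM in DMSO, 33.98 and 35.4 CPM at 2 h and 57.8 and 60.8 CPM at 6 h. It increased at each step without overlap (1.70-fold from 2 h; 0.77 ± 0.091 log2 ± SE; edgeR adjusted p = 7.31e-09). SREBF1, the lipogenic transcription factor, rose 1.37-fold, and MYLIP, a ligase for the LDL receptor, 1.34-fold, a call lost without 2 h replicate 1 or 6 h replicate 2.

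Autophagy and lysosome genes rose in 17 of 49 tested members and fell in 1 (median 0.08). ATG2A, which moves lipids into growing autophagosomes, had 56.1 and 40.9 CPM in DMSO, 54.8 and 55.3 CPM at 2 h and 96.4 and 91.1 CPM at 6 h. CTSB, a lysosomal protease, had 119 and 116, 157 and 145 and 235 and 239 CPM in that order. CTSB increased at each step, whereas for ATG2A the 2 h libraries lay within the range of DMSO and only 6 h was apart. ATG2A rose 1.69-fold and CTSB 1.57-fold (edgeR adjusted p = 4.58e-11 and 1.25e-13). SQSTM1, the cargo receptor p62, rose 1.23-fold, and RRAGD, a Rag GTPase of the lysosome, was the 1 fall (1.26-fold).

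FOXO targets rose in 7 of 28 tested genes and fell in 2 (median 0.10), and with library size alone 12 rose. TXNIP, which binds thioredoxin and limits glucose uptake, had 119 and 122 CPM in DMSO, 254 and 239 CPM at 2 h and 316 and 316 CPM at 6 h. SESN3, a sestrin that restrains mTORC1, rose 1.32-fold and S1PR1, a sphingosine phosphate receptor, 1.25-fold. TXNIP was already far above DMSO at 2 h and was higher again at 6 h. The falls were CCND2 and BBC3, the proapoptotic PUMA, which fell by 0.48, a call lost without 2 h replicate 1 or 6 h replicate 2.

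Metallothioneins buffer zinc and copper and respond to zinc through MTF1, which binds metal response elements. Of 15 tested members of the metallothionein and zinc list 3 rose and 4 fell, with a median of -0.01 that turned to 0.06 with library size alone. Of 13 members matched in RefSeq's table, 6 (46.2%) held the core TGCACNC or TGCGCNC on either strand within 250 bases before the start, and so did 33.5% of the promoters of tested genes. The promoter of MT2A (chr16:56608334-56608583, plus strand) is shown because it holds 7 such cores, in capitals.
MT2A: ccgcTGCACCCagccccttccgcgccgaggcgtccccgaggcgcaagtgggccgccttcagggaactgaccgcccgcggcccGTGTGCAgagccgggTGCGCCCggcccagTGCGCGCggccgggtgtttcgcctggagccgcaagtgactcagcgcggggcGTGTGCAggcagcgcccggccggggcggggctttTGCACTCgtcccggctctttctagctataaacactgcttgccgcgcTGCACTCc

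MT2A, which carries those cores, rose 2.77-fold between 2 h and 6 h (1.47 ± 0.22 log2 ± SE; edgeR adjusted p = 9.99e-07). MT1G, a related metallothionein, had 0.111 and 0.0949 CPM in DMSO, 0.819 and 0.426 CPM at 2 h and 1.49 and 3.60 CPM at 6 h. Its level at 6 h rested largely on replicate 2, and without it the log2 change was 1.26 rather than 2.04 and the call was lost. MT1X, also a metallothionein, was chosen after its values were seen. It had 5.46 and 4.22 CPM at 2 h and 3.96 and 6.29 CPM at 6 h. The MT1X libraries overlapped, and the log2 change of 0.08 did not pass. Zinc transporters moved by less than MT2A: SLC30A6, which loads zinc into vesicles, rose 1.28-fold. SLC39A14, a zinc and iron importer, fell 1.37-fold, SLC30A1, the zinc exporter, 1.18-fold and SLC39A8, another importer, 1.13-fold. Without 2 h replicate 2 the number of falls in this list was 2, and SLC39A8 was among those lost.

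Genes of the inhibited pathway itself rose in 6 of 24 tested members and fell in 4 (median 0.12). WNK1, the most abundant WNK kinase in these cells, had 275 and 269.8 CPM in DMSO, 311 and 320.0 CPM at 2 h and 395 and 410.3 CPM at 6 h. The groups were apart and increased with time, 1.27-fold from 2 h to 6 h (0.34 ± 0.04 log2 ± SE; edgeR quasi-likelihood, adjusted p = 6.57e-09). The substrate kinases rose by less, STK39 from 71.2 and 73.8 to 89.2 and 87.1 CPM (0.27 log2) and OXSR1 from 126 and 129 to 143 and 148 CPM (0.18). SLC12A2, the sodium-potassium-chloride importer that WNK signalling activates, had 66.2 and 74.3 CPM at 2 h and 79.9 and 76.8 CPM at 6 h, a log2 change of 0.15 ± 0.074 that did not pass (adjusted p = 0.133 by edgeR).

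WNK2, another WNK kinase, fell from 17.2 and 14.2 to 6.68 and 8.88 CPM (2.02-fold). LRRC8D, a subunit of the volume-regulated anion channel, fell 1.40-fold. OXSR1 was lost without 2 h replicate 1 or 6 h replicate 2, settings in which 3 members of the list rose, and SLC12A2 passed without 2 h replicate 2 (log2 0.24) and with library size alone (0.22). Osmotic response genes, known as targets of NFAT5 or of cell shrinkage, rose in 2 of 13 tested and fell in 6 (median -0.08). SLC5A3, the inositol carrier, had 163 and 173 CPM in DMSO, 136 and 138 CPM at 2 h and 187 and 183 CPM at 6 h, so that 2 h was lowest. The taurine carrier SLC6A6 rose 1.13-fold. SGK1, a kinase induced by osmotic and hormonal signals, had 7.34 and 5.50, 19.1 and 20.7 and 10.4 and 14.0 CPM, highest at 2 h, and HSPA4L, an HSP110-type chaperone, fell 1.53-fold. NFAT5, chosen after its values were seen, stood at 85.1 and 87.6 CPM at 2 h and 90.5 and 84.5 CPM at 6 h, did not pass, and its libraries overlapped.

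Plasma cell regulators and surface antigens rose in 7 of 27 tested genes and fell in 11 (median -0.15). The central plasma cell factor IRF4 had 574 and 591 CPM at 2 h and 573 and 584 CPM at 6 h, with 689 and 720.2 CPM in DMSO. Its 2 h and 6 h libraries overlapped and it was not called (edgeR adjusted p = 0.760). PRDM1, which encodes BLIMP1, did not pass either (0.076 log2), except with library size alone. MAF had 573 and 568 CPM in DMSO, 647 and 646 CPM at 2 h and 543 and 526 CPM at 6 h, with 2 h highest and 6 h lowest (-0.28 ± 0.035 log2 ± SE; edgeR adjusted p = 2.59e-08). SDC1, the plasma cell proteoglycan CD138, fell 1.35-fold, from 151 and 149 to 109.9 and 113 CPM, and its 6 h libraries overlapped DMSO (119.6 and 113 CPM). CCR1, a chemokine receptor, had 107 and 109, 157 and 158 and 278 and 281 CPM in the same order and rose 1.77-fold. IKZF3, the factor degraded under lenalidomide, rose 1.20-fold, and the MAF target ITGB7, an integrin with 42.3% of its exonic length shared with other genes, 1.20-fold.

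Cell death genes of the BCL2 family and caspases rose in 8 of 31 tested members and fell in 7. BMF, a BH3-only activator of apoptosis, had 37.8 and 35.4 CPM in DMSO, 64.7 and 61.6 CPM at 2 h and 104 and 104 CPM at 6 h, rising at each step (0.71 ± 0.068 log2 ± SE; edgeR adjusted p = 5.15e-11). CASP8, the initiator caspase of death receptors, rose 1.30-fold. BID, which links that caspase to mitochondria, fell 1.39-fold. The falls numbered 4 without 2 h replicate 2 and without 6 h replicate 1. Targets of p53 rose in 7 of 23 tested and fell in 7 (median 0.00). TP53INP1, a p53-induced autophagy and death factor, had 12.9 and 20.1 CPM at 2 h and 40.2 and 39.5 CPM at 6 h, a 2.38-fold rise, and RRM2B, the p53-induced ribonucleotide reductase subunit, rose 1.43-fold. TNFRSF10B, a death receptor for TRAIL, fell 1.85-fold, and FAS, with 40.6% of its exonic length shared, 1.19-fold. Without 6 h replicate 1 the falls among p53 targets numbered 4.

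Interferon-stimulated genes did not move as a block, with 3 of 23 tested genes higher (13.0%) and 4 lower (17.4%). Both shares were near those of all tested genes, 13.6% and 16.5%. STAT2, a subunit of the interferon-activated complex, had 18.3 and 15.3 CPM in DMSO, 18.3 and 21.1 CPM at 2 h and 47.0 and 45.0 CPM at 6 h, a 2.32-fold rise with 6 h apart from the rest (1.21 ± 0.11 log2 ± SE; edgeR adjusted p = 8.32e-12). OASL, an interferon-induced sensor protein, rose 4.03-fold from 1.31 and 0.981 CPM. IRF7, a factor that amplifies interferon, rose by 0.66, a call lost without any 1 of the 4 libraries. GBP1, among the largest falls, and PSMB9, an immunoproteasome subunit (-0.39 log2), were lower. PSMB9 was lost without 6 h replicate 1, and without 2 h replicate 2 or 6 h replicate 1 the falls numbered 2.

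Metabolic genes fell in part. Of 71 nuclear-encoded respiratory chain subunits 27 fell and 2 rose (median -0.16). CYCS, cytochrome c, had 547 and 547 CPM in DMSO, 502 and 477 CPM at 2 h and 329.8 and 328 CPM at 6 h. It declined at each step (-0.58 ± 0.039 log2 ± SE; edgeR adjusted p = 3.53e-15), while CYC1, of complex III, and ATP5PB, of the ATP synthase, fell 1.31-fold and 1.26-fold. With library size alone 14 members fell, and without 6 h replicate 1 16 did. The rises NDUFV3 and NDUFV2, of complex I, were both lost without 2 h replicate 2 or 6 h replicate 1, and NDUFV2 shares 28.4% of its exonic length with other genes. Glycolysis and hypoxia genes fell in 16 of 33 and rose in 4 (median -0.14). LDHA, lactate dehydrogenase, had 1758 and 1759 CPM at 2 h and 1335 and 1351 CPM at 6 h, and HK2, which phosphorylates glucose, fell 1.59-fold. The 4 rises of the list included NDRG1, BNIP3L, a mitophagy receptor (1.49-fold), and KDM3A, a histone demethylase (1.28-fold).

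Nuclear long noncoding RNAs rose in 5 of 14 tested genes and fell in 2 (median 0.30). Beside NEAT1, MALAT1, an RNA of nuclear speckles, had 192 and 150.2 CPM in DMSO, 70.7 and 66.1 CPM at 2 h and 105 and 93.0 CPM at 6 h. Like NEAT1 it was lowest at 2 h and at 6 h still below DMSO (0.53 ± 0.072 log2 ± SE; edgeR adjusted p = 1.43e-07). NORAD, which sequesters Pumilio proteins, rose 1.25-fold, HCG18 fell 1.48-fold and DANCR, with 33.8% of its exonic length shared, 1.38-fold. Among host genes of small nucleolar RNAs 7 of 22 fell and 1 rose (median -0.11). SNHG1 had 230.2 and 221 CPM in DMSO, 152 and 154 CPM at 2 h and 123 and 123 CPM at 6 h, declining at each step, and SNHG17 fell 1.47-fold. SNHG32 rose by 0.41, a call lost without 2 h replicate 2 or 6 h replicate 2, and shares 29.1% of its exonic length with other genes.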

How the data were processed

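RNA was sequenced from JJN3 cells given WNK463 for 2 h or 6 h, or DMSO, with 2 libraries in each group. The deposited table holds raw read counts per gene and library, made by the authors with featureCounts 2.0.0 on the GENCODE 34 annotation of hg38, for read pairs with a mapping quality of at least 20 and with strand ignored, per the file headers. Trimmomatic and STAR are named in the submitters' processing notes; their versions are not given in the sources used here. A record of ANK2 split over 3 lines was rejoined. Of 60728 identifiers, 42013 matched a symbol.

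Genes with at least 10 counts in 2 or more of the 4 treated libraries were tested with edgeR 4.0.16 in R 4.3.3 (TMM scaling, quasi-likelihood test, Benjamini-Hochberg adjustment over 15250 genes). The biological coefficient of variation was 6.18%. CPM levels use TMM factors over all 6 libraries. The test was tried on simulated data.

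Named genes were the 12 largest rises and falls by fold, under the limits on level, separation of the groups, symbol and shared exons given above (229 called genes of at least 4 CPM with the groups apart but 25% or more of their exonic length shared were left out), the 6 largest each way by CPM, up to 3 called members per direction of each list, and a fixed set of pathway and myeloma genes. Promoters shown were those of list members with the smallest adjusted p that held the motif of their list and had at least 4 CPM; the first promoter listed for a symbol was used. The genes compared, the lists and the rules were chosen with earlier results of these data known. Samples were grouped by their labels. Alternatives covered scaling, filters, DESeq2 1.42.0, limma 3.58.1 voom, a fit of all 6 libraries, a replicate block, a threshold of 0.01 and leaving out each library. A few list members are not reported here.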

Additional observations from a re-analysis of the deposited data

How the results depend on the processing

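The number of genes called between 2 h and 6 h was 4591. It was 4613 with DESeq2 size factors, 4806 with library size alone, 4639 and 4321 with another filter or none, 4677 with voom, 3664 with DESeq2's Wald test, 3794 in the fit of all 6 libraries, 3348 at an adjusted p under 0.01, and between 3586 and 4090 without 1 of the 4 libraries. Genes called with a log2 change of at least 1 in size numbered 333, but 165 with DESeq2's Wald test, 211 at an adjusted p under 0.01 and between 272 and 416 without 1 library. Higher calls without 1 library numbered between 1509 and 1849, and lower calls between 2077 and 2241. The library lost in each of these fits leaves a group of 1, which is assumed to vary like the other group. Over all tested genes, deviations of same-numbered replicates were not correlated (r = -0.0046 between 2 h and 6 h). That r takes in the counting noise of low-count genes, and the labels do not say how replicates were made. Whether same-numbered libraries shared a culture or batch was not tested. With a replicate block 4583 genes were called, 2077 higher and 2506 lower, of which 4494 were among the 4591. Of 169 called genes named by rule, 149 kept their call and direction under all 13 alternatives, and none of the named genes changed direction past the threshold. A count of 3 reads was worth at most 0.167 CPM, so changes of transcripts near that level, such as MT1G, rest on few reads.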
